A study of Mus musculus with 2 samples.

Results

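The D cyclins *Ccnd1*, *Ccnd2* and *Ccnd3* and their kinases *Cdk4* and *Cdk6* were followed through the cell cycle in single cells of mouse cortical neurospheres. These 5 genes were chosen by name, and 4 of them were measured among the 10666 genes of the expression table, while *Cdk4* was not analysed here. Neurospheres are free-floating spheres of neural progenitors that form when dissociated embryonic brain is grown with mitogens. The mNeurosphere data come from 2 replicate cultures of the dorsal telencephalon of wild-type C57BL/6 embryos at embryonic day 14.5, passaged in medium with 10 ng/ml EGF and 10 ng/ml bFGF, and sequenced by 10x Genomics 3′ single-cell RNA-seq. Both cultures carry the same genotype and growth factors, so the design holds 1 condition and no control arm. The question asked of each gene was where in the cycle, and in which cells, its transcript was high or low. No label states whether the cultures came from separate litters, so the spread between them (SD, n = 2) may be technical, and cells of 1 culture were not treated as replicates.

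D-type cyclins are the regulatory subunits of CDK4 and CDK6. The kinase complexes phosphorylate the retinoblastoma protein and its relatives in G1, which frees E2F factors to switch on the genes of S phase. D cyclin genes are induced by mitogens such as EGF and FGF, and in the embryonic cortex *Ccnd1* and *Ccnd2* are the D cyclins best known from dividing progenitors, with *Ccnd2* mRNA carried into the basal process of radial glia.

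In the GRCm38 assembly with GENCODE vM21 gene models, *Ccnd1* (ENSMUSG00000070348) lies on chromosome 7 from 144929931 to 144939925 on the minus strand. *Ccnd2* (ENSMUSG00000000184) lies on chromosome 6 from 127125162 to 127152193 on the minus strand, and *Ccnd3* (ENSMUSG00000034165) on chromosome 17 from 47505051 to 47599691 on the plus strand. *Cdk6* (ENSMUSG00000040274) spans chromosome 5 from 3341485 to 3531008 and *Cdk4* (ENSMUSG00000006728) chromosome 10 from 127063534 to 127067920, both on the plus strand. The D cyclins share the feature by which they reach their substrate, an LxCxE motif near the start of the protein that docks on the pocket of the retinoblastoma family. The first 45 coding bases of each are given 5′ to 3′ because they hold that motif, whose codons are in capitals.
Ccnd1: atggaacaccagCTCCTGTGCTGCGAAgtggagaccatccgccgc
Ccnd2: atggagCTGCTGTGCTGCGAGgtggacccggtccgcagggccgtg
Ccnd3: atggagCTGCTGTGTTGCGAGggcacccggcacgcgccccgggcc
These bases come from the GENCODE transcripts and lie at chr7:144939649-144939693 (minus strand, exon 1), chr6:127150729-127150773 (minus strand, exon 1) and chr17:47593655-47593699 (plus strand, exon 3 of the transcript used). Of the 15 bases in capitals, 13 were the same in *Ccnd1* and *Ccnd2*, 12 in *Ccnd1* and *Ccnd3*, and 14 in *Ccnd2* and *Ccnd3*. The motif was searched for in the coding strand of the first 15 codons of 21633 protein-coding genes, and 0.148% of them held it. Over the aligned coding sequence, *Ccnd1* and *Ccnd2* were 72.4% identical, *Ccnd2* and *Ccnd3* 70.7%, and *Ccnd1* and *Ccnd3* 68.8%. The annotation also holds a processed pseudogene, *Ccnd3-ps*, so reads of *Ccnd3* could in part have been assigned elsewhere.

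The cultures gave 5748 and 7057 cells with a median of 19477 and 14637 UMIs (unique molecular identifiers, each marking a captured molecule), and 48 cell barcodes occurred in both libraries. Markers of radial glia were widespread, with *Vim* above 0 in 99.2% and 99.9% of cells and *Fabp7* in every cell of culture 1 and nearly every cell of culture 2. *Olig2* was above 0 in 97.3% and 91.9%, and *Rbfox3*, a marker of mature neurons, in 3.78% and 4.31%. *Pdgfra* was above 0 in 8.77% of cells of culture 1 and 1.81% of culture 2, and *Dcx* in 7.34% and 1.56%, so cells with these transcripts were more frequent in culture 1, which was also the deeper library. Markers of intermediate progenitors, microglia and endothelial cells were not analysed here.

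*Ccnd2* and *Ccnd1* were among the most abundant transcripts of these cells, *Ccnd3* was detected at a far lower level, and *Cdk6* was rare. The value of a gene in a cell is its library-size-normalized expression on a linear scale. The mean value of *Ccnd2* was 26.1 in culture 1 and 26.9 in culture 2, which placed it at rank 73 and 72 of 10666 genes. The mean value of *Ccnd1* was 17.8 and 18.1, at rank 106 and 98. *Ccnd3* had a mean value of 1.27 and 1.23, at rank 1521 and 1475, and *Cdk6* of 0.0862 and 0.0801, at rank 7748 and 7770. The order *Ccnd2*, *Ccnd1*, *Ccnd3*, *Cdk6* was the same in both cultures, and each step in it exceeded the difference between cultures. Reads of this assay come from the 3′ end and each molecule is counted at most 1 time, so the underlying counts do not grow with transcript length. The deposited values are not strictly proportional to those counts, because they carry a gene-wise adjustment that is described below.

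The D cyclin pool of a cell, the sum of the 3 values, averaged 45.2 in culture 1 and 46.2 in culture 2. *Ccnd2* made up 57.9% and 58.3% of it, *Ccnd1* 39.3% and 39.1%, and *Ccnd3* 2.80% and 2.65%. *Ccnd2* exceeded *Ccnd1* in 72.0% and 65.2% of cells. The pool was therefore mostly *Ccnd2* and *Ccnd1* in both cultures, and 14 cells of culture 1 and 1 cell of culture 2 had none of the 3 transcripts.

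The means of *Ccnd1*, *Ccnd2* and *Ccnd3* lay closer between the cultures in the deposited values than before a gene-wise adjustment, as reconstructed here. Those of *Cdk6* did not, and the part of the processing in this likeness was not tested. The deposited values of a gene lie on discrete steps, and in each culture those steps followed whole molecules after a straight line on the log2 scale that differed from gene to gene, with zeros kept at 0. Among values of up to 10 molecules, 88.3% and 88.2% came out within 0.1 of a whole number for *Ccnd1*, 80.9% and 80.1% for *Ccnd2*, 98.0% and 98.1% for *Ccnd3*, and 96.6% and 99.5% for *Cdk6*. The line was itself chosen to bring values close to whole numbers, so these shares describe the fit and are no separate check. For *Cdk6* its slope was set to 1. Before that line, the mean of *Ccnd1* was 14.95 in culture 1 and 19.7 in culture 2, a ratio of 1.31, against 1.02 in the deposited values. The ratio was 1.15 before and 1.03 after for *Ccnd2*, 1.08 and 0.967 for *Ccnd3*, and 0.965 and 0.929 for *Cdk6*. *Ccnd2* was 1.57 and 1.38 times as abundant as *Ccnd1* before the line, and 1.47 and 1.49 times in the deposited values.

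Nearly every cell held *Ccnd1* and *Ccnd2* transcripts. *Ccnd1* was above 0 in 98.6% of cells of culture 1 (95% interval 98.3 to 98.9%) and 99.7% of culture 2 (99.6 to 99.8%). *Ccnd2* was above 0 in 97.0% (96.5 to 97.4%) and 99.6% (99.4 to 99.7%), *Ccnd3* in 65.7% (64.4 to 66.9%) and 61.3% (60.2 to 62.5%), and *Cdk6* in 6.58% (5.95 to 7.25%) and 5.74% (5.21 to 6.31%). The intervals are exact binomial ones that cover counting error only. With every cell thinned to 10000 UMIs, which left out 353 and 635 shallower cells, *Ccnd3* was present in 44.4% of cells of culture 1 and 48.0% of culture 2, and *Cdk6* in 3.78% and 3.59%. The order of the cultures in the share of *Ccnd3*-positive cells thus turned once depth was equal. No cell type of the cultures was known to lack these genes, so the share of cells that free RNA alone would mark could not be set beside them.

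Among cells, *Ccnd2* spread more widely than *Ccnd1*. The 5th and 95th percentiles of *Ccnd1* were 4.45 and 34.2 in culture 1 and 4.33 and 36.9 in culture 2, around medians of 16.8 and 16.7. Those of *Ccnd2* were 3.36 and 53.3 in culture 1 and 4.42 and 65.3 in culture 2, around medians of 25.1 and 22.3. On the scale of log2(value + 1), the SD over cells was 0.90 and 0.88 for *Ccnd1*, 1.17 and 1.11 for *Ccnd2*, and 0.81 and 0.83 for *Ccnd3*.

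The cell-cycle position *θ* is the polar angle of a cell in the deposited tricycle embedding. It runs from 0 to 2π, with S phase starting near 0.5π, G2/M near 1π and the middle of mitosis near 1.5π, and with G1/G0 cells between 1.75π and 0.25π through 0. *Ccnd1* and *Ccnd2* were higher in G1 and early S positions and lower in G2/M positions in both cultures, *Ccnd3* was highest in S phase, and *Cdk6* was too sparse to give a firm shape. A periodic loess line on log2(value + 1) described each gene in each culture, and its amplitude is the distance from its lowest to its highest point.

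**Figure D1:**
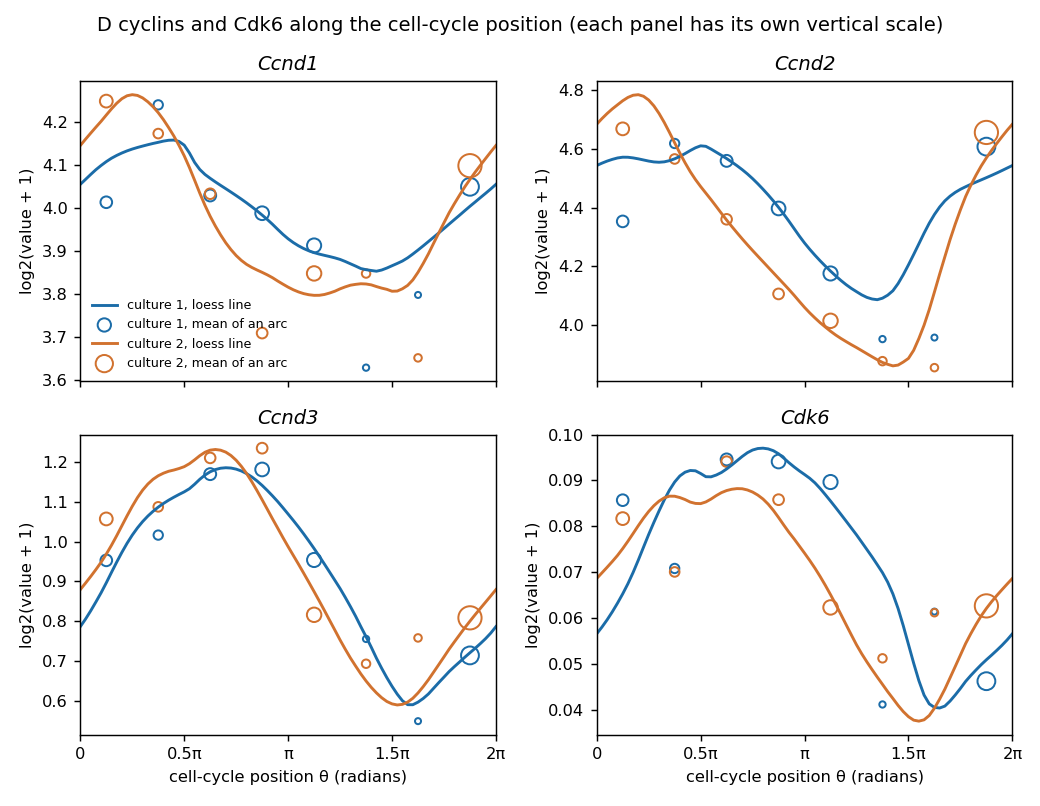
Periodic loess lines of *Ccnd1*, *Ccnd2*, *Ccnd3* and *Cdk6* (vertical axes, log2(value + 1), each with its own scale that does not start at 0) against the cell-cycle position in radians, in culture 1 (blue) and culture 2 (orange). Open circles are means over arcs of 0.25π, with an area that grows with the number of cells; the lines of *Ccnd1* and *Ccnd2* are lower at 1.25π than at 0.5π, while those of *Ccnd3* have their maximum at 0.705π and 0.65π.

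*Ccnd1*, the D cyclin most closely tied to mitogen signalling, had its line maximum at 0.45π and 0.255π (cultures 1 and 2). The amplitude was 0.31 and 0.47 on the log2 scale, a 1.24-fold and a 1.38-fold change. By arcs of 0.25π, the mean log2(value + 1) of culture 1 was 4.01, 4.24, 4.03, 3.99, 3.91, 3.63, 3.798 and 4.05 from 0 to 2π, and that of culture 2 was 4.25, 4.17, 4.03, 3.71, 3.85, 3.85, 3.65 and 4.098. Every arc from 0.75π to 1.75π was thus below every arc from 1.75π to 0.75π within each culture. The cultures parted most at 0.75π to 1π (3.99 and 3.71) and at 0 to 0.25π (4.01 and 4.25), and of the 7 neighbouring pairs in the order of arcs 2 had ranges over the cultures that did not overlap. The arcs from 1.25π to 1.75π held 85 and 64 cells of culture 1 and 279 and 189 of culture 2, so they rest on few cells.

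*Ccnd2*, the most abundant of the D cyclins here, followed a similar course with a larger swing. The division of arcs seen for *Ccnd1* did not hold for it in culture 1. There the arc at 0 to 0.25π (4.35) lay below that at 0.75π to 1π (4.40). The highest point of its line lay at 0.51π and 0.195π, with an amplitude of 0.53 and 0.92, a 1.44-fold and a 1.90-fold change. The arc means from 0 to 2π were 4.35, 4.62, 4.56, 4.40, 4.18, 3.95, 3.96 and 4.61 in culture 1, and 4.67, 4.57, 4.36, 4.11, 4.01, 3.88, 3.85 and 4.66 in culture 2. The level was lowest in the arcs after 1π in both cultures and high again at 1.75π to 2π, where most G1/G0 cells lie (1789 and 3149 cells). Of the 7 neighbouring pairs of arcs, 1 had ranges that did not overlap, so the fine order of arcs was not resolved. With a narrower loess span of 0.1 the maximum of *Ccnd2* lay at 1.94π and 1.96π, so the place of the peak within G1 and early S depended on the smoothing.

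The amplitude of *Ccnd2* over the cultures was 0.72 ± 0.28 (SD, n = 2) and that of *Ccnd1* 0.39 ± 0.11. Before the gene-wise line, the amplitude was 0.59 and 0.76 for *Ccnd2* in cultures 1 and 2, and 0.34 and 0.39 for *Ccnd1*. By this reconstruction the cultures lay closer before that line. The part of the processing in this spread was not tested. *Ccnd2* had the larger amplitude in each culture, and the difference of log2 means, *Ccnd2* minus *Ccnd1*, was 0.56 in both cultures at 1.75π to 2π against 0.26 and 0.17 at 1π to 1.25π. The mean D cyclin pool was 49.9 and 52.5 at 1.75π to 2π and 38.3 and 35.4 at 1π to 1.25π. The share of *Ccnd2* in the pool moved from 60.0% and 61.1% to 55.0% and 53.4% between the same arcs.

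*Ccnd3* was phased later than the other D cyclins. Its line peaked at 0.705π and 0.65π and had its minimum at 1.59π and 1.53π. The amplitude was 0.60 and 0.64, a 1.51-fold and a 1.56-fold change on the scale of value + 1. Its arc means from 0 to 2π were 0.95, 1.017, 1.17, 1.181, 0.95, 0.76, 0.55 and 0.71 in culture 1, and 1.06, 1.09, 1.21, 1.23, 0.82, 0.69, 0.76 and 0.81 in culture 2. The arcs from 0.5π to 1π were the highest of the 8 in both cultures, with ranges that did not overlap those of any other arc. The median depth in these arcs was above that of the whole culture, at 20253 and 22967 UMIs in culture 1 and 15727 and 17148 in culture 2. With cells thinned to 10000 UMIs, *Ccnd3* was present in 53.6% and 53.3% of cells of these arcs in culture 1 and 60.0% and 60.2% in culture 2, against 35.2% and 43.3% at 1.75π to 2π.

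*Cdk6*, the kinase partner measured, had so few molecules that its line rested on 378 and 405 positive cells. Its highest point lay at 0.795π and 0.68π, with an amplitude of 0.06 and 0.05. The share of cells above 0 was 8.18% and 8.02% at 0.5π to 0.75π and 3.75% and 4.99% at 1.75π to 2π. After thinning to 10000 UMIs these shares were 5.02% and 5.01% against 2.25% and 3.33%, so the share was also higher in S positions at equal depth.

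The position explained a small share of the variation of these genes, although by the lower of the cultures each lay above the median gene. The share of variance (R2) of log2(value + 1) explained by 2 harmonics of the position was 0.00815 in culture 1 and 0.0366 in culture 2 for *Ccnd1*, and 0.0189 and 0.0804 for *Ccnd2*. It was 0.0537 and 0.0409 for *Ccnd3* and 0.00422 and 0.00199 for *Cdk6*. A gene was called as varying with the position where R2 was at least 0.05 in both cultures, which 0 of the 4 measured members and 4.01% of all genes (428 of 10666) reached. At a threshold of 0.02, 1 of the 4 members, *Ccnd3*, was called against 8.34% of all genes (890 of 10666). In culture 1 alone 1 of 4 reached 0.05, *Ccnd3*, beside 5.6% of all genes, and in culture 2 alone 1 of 4, *Ccnd2*, beside 4.26%. With total UMIs in the fit, 1 of 4 was called in both cultures, *Ccnd2* (0.0530 and 0.0874), beside 3.86% of all genes. It was 0 of 4 with a pseudocount of 2 (3.98% of all genes). By the lower R2 of the cultures, *Ccnd3* ranked 496, *Ccnd2* 927, *Ccnd1* 1865 and *Cdk6* 5051 of all genes, and the median over all genes was 0.00183. No p-value was given, since cells of a culture are not replicates. R2 also falls with sparsity, so the low value of *Cdk6* may not be set beside that of an abundant gene.

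**Figure D2:**
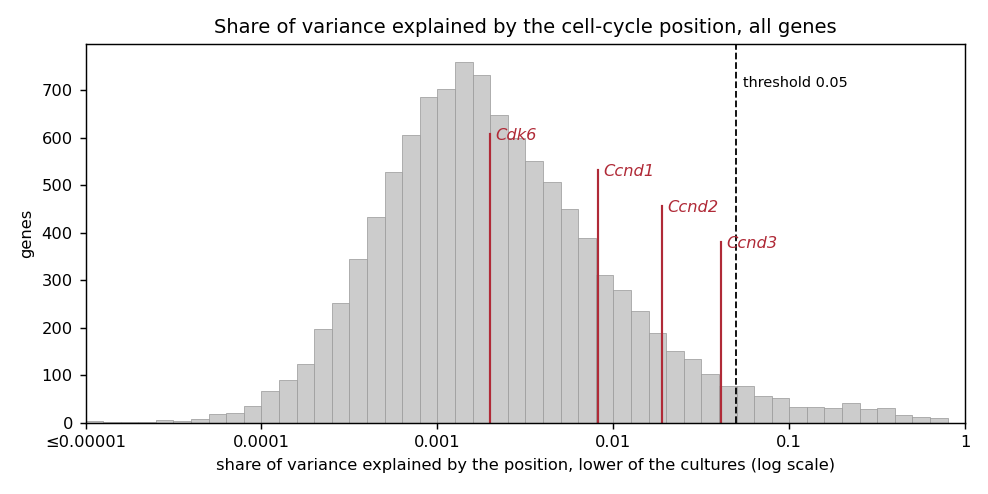
Number of genes (vertical axis) by the share of variance in log2(value + 1) that 2 harmonics of the position explained, taken as the lower of the cultures (horizontal axis, log scale), for all 10666 genes. Red lines mark the measured members, which all lie left of the dashed threshold of 0.05, *Ccnd3* nearest to it at 0.0409.

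The position was built by the authors from genes annotated to the cell cycle, a term that D cyclins carry, so the members may have taken part in it. A position was therefore recomputed from 90 S and G2/M genes of Seurat, none of which is a member, and its circular correlation with the deposited position was 0.933 and 0.904. On that axis the maximum of *Ccnd1* lay at 0.28π and 0.235π, of *Ccnd2* at 0.235π and 0.17π, and of *Ccnd3* at 0.67π and 0.625π. Again 0 of 4 members were called, beside 3.94% of all genes. The amplitudes were 0.36 and 0.46 for *Ccnd1*, 0.57 and 0.85 for *Ccnd2*, and 0.49 and 0.54 for *Ccnd3*. On this axis too, the maxima of *Ccnd1* and *Ccnd2* lay before that of *Ccnd3* in each culture.

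Discrete stages gave a common result for *Ccnd3*, placed the lowest *Ccnd2* mostly in G2/M cells, and differed among methods for *Ccnd1*. By the deposited Seurat stages, *Ccnd1* had a mean log2(value + 1) of 4.03 in G1, 4.07 in S and 3.91 in G2M cells of culture 1, and 4.12, 4.01 and 3.82 in culture 2. *Ccnd2* stood at 4.54, 4.52 and 4.19 in culture 1 and 4.65, 4.36 and 3.995 in culture 2. *Ccnd3* stood at 0.77, 1.12 and 1.01 in culture 1 and 0.85, 1.17 and 0.84 in culture 2. By this method G2M cells were lowest for *Ccnd1* and *Ccnd2* in both cultures and S cells highest for *Ccnd3*. By the SchwabeCC stages, *Ccnd3* was highest in S cells (1.17 and 1.14) and *Ccnd1* in G1.S cells (4.13 and 4.12). *Ccnd1* was lowest in G2.M cells of culture 1 (3.87) and in S cells of culture 2 (3.86). *Ccnd2* was highest in G1.S cells of culture 1 (4.63) but in G2 cells of culture 2 (4.54), and lowest in G2.M cells of both (4.23 and 4.20). The cyclone stages placed 133 and 56 cells in S, where *Ccnd3* was again highest (1.33 and 1.08) and *Ccnd1* lowest (3.77 and 3.47). *Ccnd2* by cyclone was lowest in G2M cells of culture 1 (4.18) and in S cells of culture 2 (3.92). S cells were thus highest for *Ccnd3* by each of the methods, while the stage in which *Ccnd1* was lowest depended on the method. *Ccnd2* was lowest in G2M or G2.M cells throughout, except by cyclone in culture 2, where the 56 S cells were lowest.

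Within single cells *Ccnd1* and *Ccnd2* went together. Over all cells the Pearson correlation of *Ccnd1* and *Ccnd2* on log2(value + 1) was 0.457 in culture 1 (5748 cells) and 0.294 in culture 2 (7057 cells). The Spearman correlation was 0.384 and 0.278. With position and total UMIs regressed out, the Pearson correlation was 0.381 and 0.244. The cells share a library, so these values are descriptions and carry no p-value. Among 10665 possible partners, *Ccnd2* was the gene with the highest correlation with *Ccnd1* in each culture, while *Ccnd1* ranked 16 and 8 among the partners of *Ccnd2*.

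**Figure D3:**
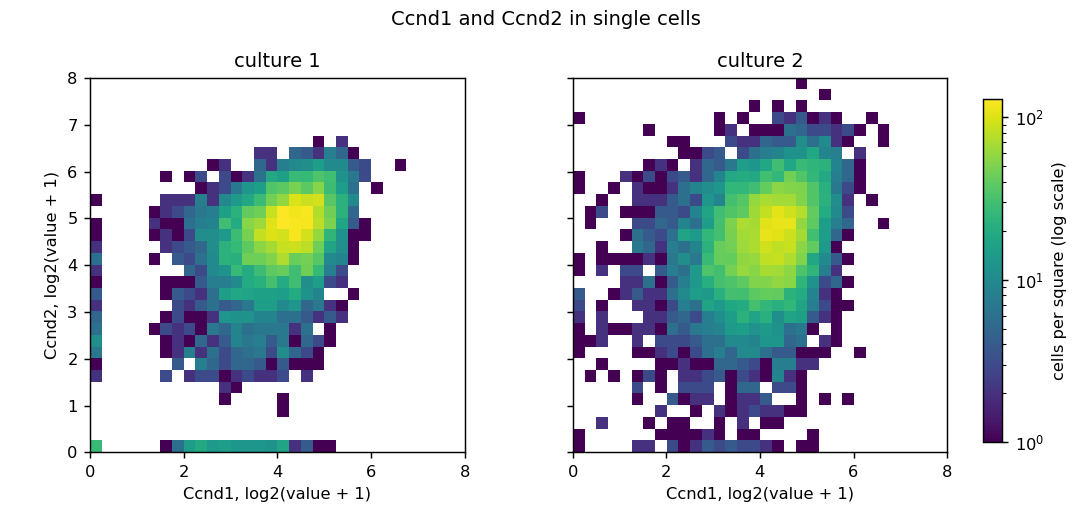
Values of *Ccnd1* (horizontal axis) and *Ccnd2* (vertical axis), both log2(value + 1), in single cells of culture 1 (left) and culture 2 (right), where the colour of a square is the number of cells in it on a log scale. The main cloud tilts upward in both cultures (Pearson correlation 0.457 and 0.294), and squares along the axes are cells with 1 of the transcripts at 0, which are more frequent in culture 1.

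In cells ordered by *Ccnd2* and divided into 5 groups of nearly equal size, the mean value of *Ccnd1* was 12.1, 16.6, 18.02, 19.0 and 22.9 in culture 1 and 14.2, 16.5, 17.7, 19.3 and 22.7 in culture 2, from the lowest to the highest group. The increase held at every step in both cultures. *Ccnd3* had a mean log2(value + 1) of 1.07, 0.94, 0.89, 0.91 and 0.89 over the same groups of culture 1, and 0.80, 0.91, 0.91, 0.94 and 0.996 in culture 2, opposite courses in the cultures. The lowest *Ccnd2* group was also the shallowest, with a median of 14174 UMIs in culture 1 against 21083 in the highest, and 13635 against 14773 in culture 2.

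**Figure D4:**
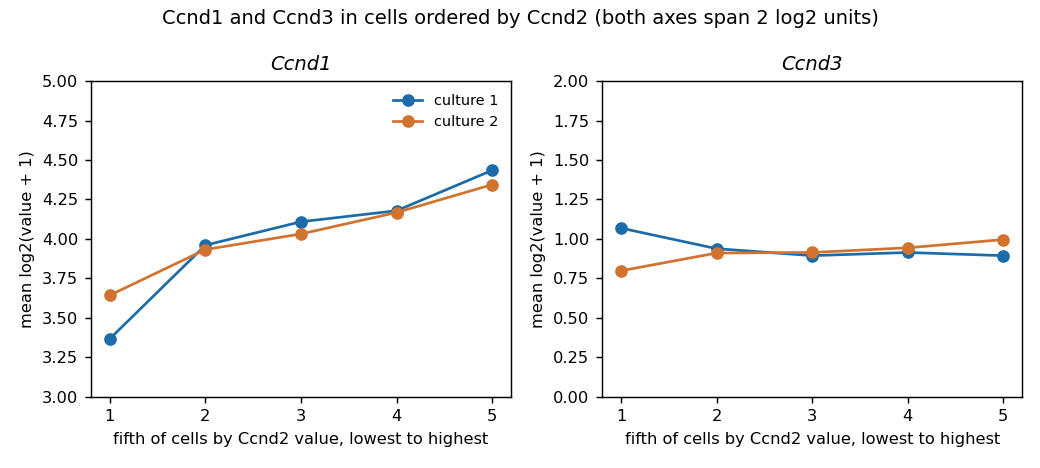
Mean log2(value + 1) of *Ccnd1* (left) and *Ccnd3* (right) in 5 groups of cells ordered by their *Ccnd2* value, in culture 1 (blue) and culture 2 (orange), on axes that both span 2 log2 units, of which the left does not start at 0. *Ccnd1* rises from 3.37 to 4.43 (culture 1) and from 3.64 to 4.34 (culture 2), while *Ccnd3* stays between 0.80 and 1.07.

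The pairing was found at every stage of the cycle. Within the 8 arcs the correlation of *Ccnd1* and *Ccnd2* lay between 0.332 and 0.525 in culture 1 and between 0.159 and 0.303 in culture 2. Within 5 groups of cells by total UMIs it was 0.466, 0.426, 0.304, 0.268 and 0.404 in culture 1 and 0.344, 0.188, 0.274, 0.290 and 0.298 in culture 2. Leaving out the cells with barcodes found in both libraries left the correlation with position and depth regressed out at 0.380 and 0.244. Leaving out the upper 10% of cells by oligodendrocyte progenitor or astroglial score and the cells with *Dcx* or *Gad1* left it at 0.319 and 0.232.

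Absence of the transcripts was paired too. Both were at 0 in 27 cells of culture 1, where independent loss would give 2.38, and in 1 cell of culture 2, where it would give 0.0740. The odds ratio of finding *Ccnd1* in a cell with *Ccnd2* was 19.6 and 14.7 without strata. Stratified by total UMIs and position together (Mantel-Haenszel) it was 4.70 and 3.40, and the value of culture 2 rests on that 1 cell. Much of the raw ratio thus went with these strata, in which depth was not separated from position. With a cell called high when its value was above the median of the positive cells, both genes were high in 30.05% and 29.4% of cells, against 23.9% and 24.8% under independence, and the stratified odds ratio was 2.32 and 1.82.

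The pairs with *Ccnd3* were weak. *Ccnd1* and *Ccnd3* had a correlation of -0.00140 in culture 1 and 0.0316 in culture 2, and *Ccnd2* and *Ccnd3* of -0.0758 and 0.0711. The stratified odds ratio of detection was 0.977 and 1.75 for *Ccnd1* with *Ccnd3* and 0.812 and 0.637 for *Ccnd2* with *Ccnd3*. The stratified odds ratio of *Ccnd2* with *Ccnd3* was thus below 1 in both cultures, but without strata it was 1.59 and 1.12. It rests on the 173 and 29 cells without *Ccnd2*, and that of *Ccnd1* with *Ccnd3* on the 79 and 18 without *Ccnd1*. The correlation of *Ccnd2* and *Ccnd3* changed sign between the cultures. Pairs with *Cdk6* had correlations between -0.0115 and 0.0344, at counts too sparse to be read.

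Cells without *Ccnd1* or *Ccnd2* were shallow and differed in their position and markers. *Ccnd1* was at 0 in 79 cells of culture 1 and 18 of culture 2, with a median of 10359 and 8594 UMIs against 19574 and 14647 in the other cells. *Ccnd2* was at 0 in 173 and 29 cells, with a median of 10126 and 9951 UMIs against 19693 and 14654. *Sox10* was above 0 in 22.5% of the *Ccnd2*-negative cells and 3.70% of the other cells of culture 1, and in 10.3% and 0.711% in culture 2. *Dcx* was above 0 in 35.3% against 6.48% in culture 1 and 10.3% against 1.52% in culture 2, while *Slc1a3*, a glutamate transporter of radial glia and astrocytes, was less frequent at 42.8% against 93.6% and 72.4% against 94.1%. In culture 2 the shares of *Sox10* and *Dcx* each rest on 3 of 29 cells. *S100b*, an astroglial marker, was above 0 in 35.3% against 18.1% in culture 1. In culture 2 it was above 0 in 0 of 29 cells, which allows a share of up to 10.3%, against 6.67%, so no direction was resolved there. *Olig2* was above 0 in 94.8% against 97.3% in culture 1 and 96.6% against 91.8% in culture 2. *Ccnd3* in the *Ccnd2*-negative cells stood at a mean log2(value + 1) of 1.12 and 1.13, above the 0.94 and 0.91 of the other cells. The part of depth in these shares of position and markers was not tested.

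Marker scores were used to ask whether the D cyclins differed between kinds of cells. A score is the mean log2(value + 1) of a marker list, and its upper 10% is a range of cells rather than a cell type, with 420 to 1022 cells within 0.1 of its lower limit. In the upper 10% by the radial glia score (*Pax6*, *Hes1*, *Nes*, *Vim*, *Fabp7*, *Slc1a3*), *Ccnd2* was 5.01 against 4.38 in the other cells of culture 1, and 4.69 against 4.41 in culture 2. *Ccnd1* was 4.20 against 3.99 and 4.20 against 4.004. Both genes were higher in these cells in both cultures, by 0.20 ± 0.01 for *Ccnd1* and 0.46 ± 0.25 for *Ccnd2* (SD, n = 2), whereas *Ccnd3* differed by -0.10 and 0.00.

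In the upper 10% by the oligodendrocyte progenitor score (*Pdgfra*, *Cspg4*, *Sox10*, *Olig2*), *Ccnd2* was 3.29 against 4.57 in culture 1 and 4.32 against 4.45 in culture 2. It was lower in both cultures, but by very unequal amounts, -1.28 and -0.13. *Ccnd1* went in opposite directions, at 3.71 against 4.04 in culture 1 and 4.11 against 4.01 in culture 2. The cells of this range were shallower in culture 1, with a median of 14427 UMIs against 19884, and weighting by total UMIs gave -0.96 there and -0.10 in culture 2. Their median radial glia score was 2.45 against 3.01 in culture 1 and 2.78 against 2.85 in culture 2, and the part of that score in the difference was not tested. *Olig2* was above 0 in nearly all cells, so a stricter choice was added after the data were seen, namely cells with at least 2 of *Pdgfra*, *Cspg4* and *Sox10*. These 194 and 58 cells had a median of 19798 and 21874 UMIs, *Ccnd2* at 3.196 against 4.48 and 3.86 against 4.44, and *Ccnd3* at 1.40 against 0.93 and 1.39 against 0.91. *Ccnd1* was 3.64 against 4.02 in culture 1 and 3.95 against 4.02 in culture 2. In these cells *Ccnd2* was thus lower and *Ccnd3* higher in both cultures.

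*Dcx*, a microtubule protein of migrating neurons, or *Gad1*, an enzyme of GABA synthesis, was above 0 in 600 cells of culture 1 and 160 of culture 2. *Ccnd2* in them was 3.604 against 4.54 and 4.22 against 4.44, and *Ccnd1* 3.65 against 4.05 and 3.86 against 4.03. *Ccnd3* was higher, at 1.12 against 0.92 and 1.099 against 0.91. The directions held in both cultures and with weighting by total UMIs, where the differences were -0.79 and -0.21 for *Ccnd2*, -0.35 and -0.17 for *Ccnd1*, and 0.18 and 0.17 for *Ccnd3*. Only these 2 markers of their list were measured, so the cells were given no type.

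In the upper 10% by the astroglial score (*S100b*, *Aldh1l1*, *Gja1*), *Ccnd1* was 3.65 against 4.05 in culture 1 and 3.96 against 4.03 in culture 2. *Ccnd2* was 4.503 against 4.43 and 4.64 against 4.41, so the D cyclins parted here, with *Ccnd1* lower and *Ccnd2* not lower. At positions from 1.5π to 0.5π alone the difference of *Ccnd2* was -0.08 and 0.24, while that of *Ccnd1* was -0.54 and -0.11. *Cdk6* was above 0 in 2.09% of these cells against 7.08% of the others in culture 1, and in 2.83% against 6.06% in culture 2, at similar depths (20195 against 19379 and 14609 against 14640 UMIs).

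**Figure D5:**
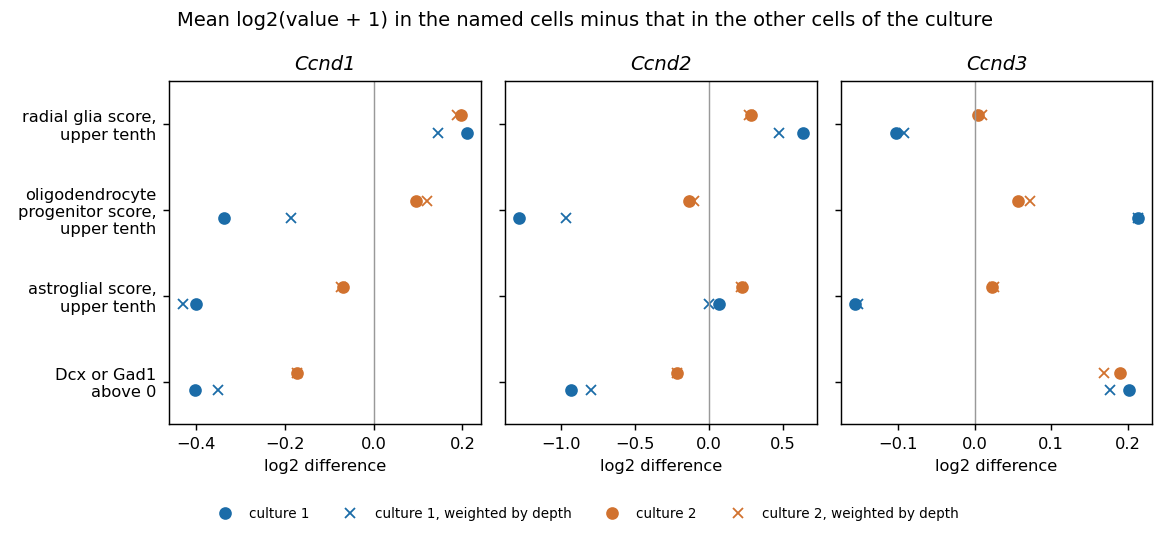
Difference in mean log2(value + 1) of *Ccnd1*, *Ccnd2* and *Ccnd3* (panels, each with its own horizontal scale) between the cells named on the vertical axis and the other cells of the same culture, in culture 1 (blue) and culture 2 (orange), as dots and, weighted by total UMIs, as crosses. *Ccnd1* and *Ccnd2* lie right of 0 for the radial glia score and left of 0 for cells with *Dcx* or *Gad1* in both cultures, and *Ccnd2* of culture 1 reaches -1.28 for the oligodendrocyte progenitor score.

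The pairing of *Ccnd1* and *Ccnd2* was present in each range of cells. The correlation was 0.358 and 0.257 in the upper 10% by radial glia score, 0.535 and 0.446 by oligodendrocyte progenitor score, 0.547 and 0.222 by astroglial score, and 0.512 and 0.516 in cells with *Dcx* or *Gad1*. In the remaining 4227 and 5603 cells outside the latter 3 ranges it was 0.387 and 0.282.

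The genes whose values were most like those of each member over cells were named by the lower of the correlations in the cultures. For *Ccnd1* these were *Ccnd2* (0.457 and 0.294), *Vav3* (0.280 and 0.192), *Nes*, the intermediate filament of neural progenitors (0.401 and 0.188), *Timm10b* (0.207 and 0.178) and *Angpt2* (0.222 and 0.173). For *Ccnd2* they were *Igfbp2*, a binding protein of insulin-like growth factors (0.650 and 0.359), *Atp5g1* (0.396 and 0.331), *Cox8a* (0.366 and 0.325), *Mt3*, a metallothionein (0.545 and 0.321), and *Pea15a* (0.538 and 0.319). The leading partners of *Ccnd2* were stronger than those of *Ccnd1*, and *Igfbp2* kept 0.522 and 0.345 with position and depth regressed out.

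For *Ccnd3* the most like genes were *Tipin* (0.160 and 0.123), *Chaf1b* (0.156 and 0.122), *Mcm3* (0.149 and 0.117), *Hells* (0.150 and 0.114) and *Ung* (0.114 and 0.113). Their known roles lie at the replication fork, in chromatin assembly, in the replicative helicase, in chromatin remodelling and in uracil removal from DNA. With position and depth regressed out, these correlations lay between -0.0118 and 0.0333, so nothing of note was left in cells of like position. For *Cdk6* they were *Basp1* (0.143 and 0.0994), *Ncald* (0.0930 and 0.105), *Trp53i11* (0.107 and 0.0839), *Rtn1* (0.0981 and 0.0825) and *Actb* (0.109 and 0.0757), weak values at sparse counts.

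Over 24 arcs of the position, among 890 genes with an R2 of at least 0.02, the course of *Ccnd1* was most like that of *Timm10b* (0.783 and 0.716), *BC031181* (0.680 and 0.742) and *Eps8*, a substrate of the EGF receptor (0.675 and 0.782). That of *Ccnd2* was most like *Timm10b* (0.814 and 0.896), *Nt5c* (0.790 and 0.865) and *Atp6v0e* (0.782 and 0.887). Among the genes most like *Ccnd3* in course were *Rfc1*, a subunit of the clamp loader (0.881 and 0.889), and *Atad5*, which unloads the clamp (0.881 and 0.892). The course of *Cdk6* was most like that of *Gps2* (0.671 and 0.555), *Adgrl1* (0.548 and 0.589) and *Dpf1* (0.547 and 0.647). The arcs are few, share cells' library and held as few as 16 cells, so these values describe shape only.

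Other genes of the pathway were called as varying with the position in some lists and not in others. Of 58 genes on 6 lists 53 were measured, and 14 had an R2 of at least 0.05 in both cultures, beside the 4.01% of all genes. The called genes came from 3 of the 6 lists. Genes annotated to the cell cycle may have taken part in the position, which would raise their R2. No R2 on the recomputed position is given for these lists, so they do not stand on equal terms. All 5 measured genes of the next step of the cycle were called, among them *Cdk1*, the mitotic kinase, with an R2 of 0.682 and 0.544 and a maximum at 1.12π and 1.06π. *Ccne2* (0.322 and 0.258) and *Ccne1* (0.301 and 0.237), the E cyclins that follow the D cyclins, had their maxima at 0.655π and 0.62π and at 0.695π and 0.635π, close to those of *Ccnd3*. The median lower R2 of this list was 0.237, against 0.00183 over all genes.

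Among pocket proteins and E2F factors, 6 of 14 were called (*E2f1*, *E2f2*, *E2f8*, *Tfdp1*, *Rbl1* and *Lin54*), with a median lower R2 of 0.0444. *E2f1*, an activator freed by D cyclin kinases, had an R2 of 0.231 and 0.251 and a maximum at 0.665π and 0.62π. *E2f8* reached 0.137 and 0.128 at 0.76π and 0.78π, and *Tfdp1*, the partner of E2F factors, 0.155 and 0.0990 at 0.825π and 0.725π. *Rb1*, the main substrate of D cyclin kinases and named here after its values were seen, had an R2 of 0.00174 and 0.00228.

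Of the inhibitors, 3 of 5 measured were called, with a median lower R2 of 0.0515. *Cdkn2c*, which encodes the CDK4 and CDK6 inhibitor p18, had an R2 of 0.167 and 0.191 with its maximum at 1.22π and 1.1π, where *Ccnd1* and *Ccnd2* were low. *Cdkn2b* (0.0732 and 0.0555), which encodes p15, and *Cdkn1a* (0.0515 and 0.119), which encodes p21, had their maxima at 1.71π and 1.695π and at 1.67π in both cultures.

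In the remaining lists none was called, beside 4.01% of all genes. The counts were 0 of 6 for the CDK activating kinase and chaperones and 0 of 10 for D cyclin turnover. For the mitogen signal it was 0 of 13. At that share, lists this short can hold no called gene, so the counts do not set them apart. The median lower R2 of these lists was 0.00375, 0.000957 and 0.00225, against 0.00183 over all genes. *Hsp90aa1*, a chaperone of kinases, had the highest lower R2 of these lists (0.10 and 0.0286), followed in its list by *Hsp90ab1* (0.00778 and 0.0507) and *Cdc37* (0.00614 and 0.00408). The leading genes of D cyclin turnover were *Usp2*, a deubiquitinase of cyclin D1 (0.00891 and 0.0269), *Gsk3b* (0.00940 and 0.00531) and *Fbxo4* (0.00892 and 0.00478). Those of the mitogen signal were *Etv5*, a target of FGF signalling (0.00930 and 0.00853), *Myc* (0.00590 and 0.00548) and *Etv1* (0.00366 and 0.00746). These mitogen-responsive genes were below the threshold of 0.05 in both cultures, as *Ccnd1* was, whereas *Ccnd2* passed it in culture 2.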

How the data were processed

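The deposited expression signal of 12805 cells was made by the authors from spliced counts quantified with Alevin (Salmon 1.3.0) on GRCm38 with GENCODE vM25. The authors removed outlying cells by depth, genes, mitochondrial share and doublet score, scaled by library size and integrated the cultures with Seurat 3.2.2, and no further doublet calling was done here. Which step made the gene-wise line described in the report is not given in the sources used here. Total UMIs per cell are estimated counts deposited by the authors, and the position and the stages, other deposited columns, are theirs as well.

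Gene IDs were matched to symbols for 10662 of 10666 genes. With Python 3.11.15 (numpy 2.4.6, scipy 1.17.1, pandas 2.3.3), log2(value + 1) was fitted in each culture with a periodic loess (degree 2, span 0.3) and, for all genes, with 2 harmonics. Because a line is fitted on tripled data, the span of 0.3 covers most cells of a culture and smooths narrow peaks. Co-detection was stratified by 5 groups of total UMIs and 8 arcs of the position. Seurat 5.3.0 supplied the S and G2/M genes. The fits and the recovery of steps were tested on simulated data.

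The unit fits no count model and the design holds 1 condition, so no test between groups was run. The named genes were the members, the 5 genes most like each over cells, the 3 most like each over 24 arcs, and the 3 of highest lower R2 in each pathway list, beside those called; 1 of them is not reported here. Members and lists were chosen with earlier results of these data known.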

Additional observations from a re-analysis of the deposited data

How the results depend on the processing

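No paired analysis was possible because both cultures belong to 1 group and no groups are compared. Values are given as the mean over the cultures. The amplitude moved with the loess span and, for *Ccnd3* and *Cdk6*, with the pseudocount. With a span of 0.1 the amplitude was 0.63 for *Ccnd1*, 1.04 for *Ccnd2*, 0.75 for *Ccnd3* and 0.0914 for *Cdk6*, and the maximum lay at 1.95π for *Ccnd2*, 0.833π for *Ccnd3* and 0.458π for *Cdk6*. With a span of 0.5 the amplitude was 0.26 for *Ccnd1*, 0.38 for *Ccnd3* and 0.0329 for *Cdk6*, and the maximum of *Ccnd3* lay at 0.578π. A pseudocount of 0.5 gave an amplitude of 0.88 for *Ccnd3* and 0.0837 for *Cdk6*, and a pseudocount of 2 gave 0.41 and 0.0322. On the position from the Seurat genes the amplitude was 0.51 for *Ccnd3* and 0.0452 for *Cdk6*, and without the 3 marker ranges it was 0.0582 for *Cdk6*. Thresholds on R2 of 0.02 and 0.1 called 890 and 240 genes in place of 428. Before the gene-wise line the mean level was 17.3 for *Ccnd1*, 25.3 for *Ccnd2* and 1.2 for *Ccnd3*.

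The log2 odds ratio of *Ccnd1* with *Ccnd2* was 2.0, and 4.09 without strata. It was 1.63 with 10 groups of total UMIs and 1.04 for high values. The value for high values was the same before the gene-wise line. That line keeps the order of a gene's values within a culture, so the likeness is no check. The log2 odds ratio of *Ccnd1* with *Ccnd3* was 0.39, and 1.33 without strata. That of *Ccnd2* with *Ccnd3* turned from -0.48 to 0.42 without strata, and to 0.10 for high values (0.0995 before the gene-wise line). The strata hold depth and position, and the cause of the turn for high values was not tested. *Ccnd1* in the radial glia range was 0.17 higher with weighting by total UMIs. *Ccnd3* was 0.48 higher in cells with at least 2 of *Pdgfra*, *Cspg4* and *Sox10*, and in cells with *Dcx* or *Gad1* it was 0.16 higher at positions from 1.5π to 0.5π and 0.17 higher with weighting. The gene-wise line, the shared barcodes and that stricter choice were tried after the data were seen. Small differences changed sign between the cultures. The log2 odds ratio of *Ccnd1* with *Ccnd3* was 0.81 without culture 1 and -0.03 without culture 2, and -0.16 without the 3 marker ranges, and *Ccnd1* in the oligodendrocyte progenitor range differed by 0.10 without culture 1 and by -0.34 without culture 2. The odds ratio of *Ccnd1* with *Ccnd2* had no finite value without the 3 marker ranges, and a narrower range could not be set for cells with *Dcx* or *Gad1*. The depth leaves *Cdk6* close to the limit of detection.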

Other observations

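Genes that ran opposite to the members over cells were read off after their values were seen. *Ccnd2* was most opposite to *Ptma*, the chromatin-associated prothymosin alpha (-0.381 in culture 1 and -0.406 in culture 2), and to the ribosomal protein genes *Rpl6* (-0.280 and -0.268) and *Rps16* (-0.356 and -0.266). With position and depth regressed out these were -0.277 and -0.334, -0.277 and -0.296, and -0.287 and -0.284, so they held among cells of like position and depth. *Ccnd3* was most opposite to *Lgals1*, which encodes galectin-1 (-0.136 and -0.120), and *S100a10* (-0.151 and -0.103). *Ccnd1* was most opposite to *H3f3b*, a gene of histone H3.3 (-0.167 and -0.137), *Stmn1*, a tubulin-binding protein (-0.110 and -0.135), and *Tox3* (-0.191 and -0.106), and these were -0.0672 and -0.0692, -0.0256 and -0.0374, and -0.136 and -0.107 with position and depth regressed out. *Cdk6* was most opposite to *Slc1a3* (-0.104 and -0.0929). The cells share a library, so these values are descriptions.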
